A study of Caenorhabditis elegans with 12 samples.

Results

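Mid-embryos carrying *set-2(zr2012)*, an allele that substitutes 1 amino acid in the catalytic SET domain of SET-2, were compared with wild type by RNA-seq. The comparison uses 6 of the 12 libraries of the series, those whose titles place them in the second experiment: 3 of *set-2(zr2012)* and 3 of wild type (N2, the laboratory strain), all of which entered the fit. The allele was made by CRISPR in *pha-1(e2123)* animals with a *pha-1* repair template, used to pick edited animals, and was then backcrossed. Hermaphrodites grown at 20°C were treated with hypochlorite, and eggs were left for 4 h before RNA was taken from whole embryos, most of them at the comma stage. The preparations were independent and both genotypes were prepared in parallel. Nothing in the labels ties a mutant preparation to a wild-type one by more than a number.

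SET-2 is the *C. elegans* relative of the yeast Set1 and mammalian SETD1 enzymes. Within the COMPASS complex, which also holds ASH-2, RBBP-5, WDR-5.1 and DPY-30, it places methyl groups on lysine 4 of histone H3 (H3K4), and the trimethylated form marks the starts of transcribed genes. The study asked what loss of this activity does to the growth of axons in the embryo, and the zr2012 libraries address whether a change in the catalytic domain alone alters the transcriptome. At the comma stage most embryonic cells have been born, neurons send out axons, and the embryo starts to elongate.

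The libraries held 23856585, 32222609 and 28440948 counts in *set-2(zr2012)* and 27796455, 21731533 and 42425059 in wild type. Because whole embryos were sequenced, fewer cells of a type and less RNA per cell cannot be told apart in any result given here. The count of *set-2* itself could not check the labels, since it was listed with only 12, 13 and 10 reads in the mutant libraries, against 9, 13 and 17 in wild type, and the allele is a substitution. Of the tissue markers, *elt-2* (intestine) had 579 to 2141 counts per library, *lin-26* (epidermis) 1966 to 7460 and *pha-4* (pharynx) 78 to 206 on its accession row, while *hlh-1* (body wall muscle) had 0 or 1 and *unc-119* (neurons) 2 to 6. The counting splits some genes over several rows, so a low row does not show that the tissue was missing.

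Wild-type replicate 3 stood apart from the other wild-type libraries. Across genes, log2 CPM (library-scaled counts, TMM) had a Pearson correlation of 0.993 to 0.994 between mutant libraries and of 0.995 between the first 2 wild-type libraries, but of 0.944 and 0.946 between wild-type replicate 3 and these. Across genes, the median absolute difference on the log2 CPM scale was 0.09 between wild-type replicates 1 and 2 and 0.56 between replicate 3 and their mean. It was 0.46 between the mean of the 3 mutant libraries and the same wild-type mean. The gene lists that set it apart were those of early embryos and cell division, which were higher, and of differentiated cells, which were lower. Its early zygotic genes, transcribed soon after embryonic transcription starts, lay a median of 2.18 log2 units above the mean of wild-type replicates 1 and 2, where the mutant libraries lay 0.55, 0.41 and 0.35 above it. For DNA replication genes the same measure was 0.39, 0.46 and 0.34 in the mutant libraries and 1.83 in wild-type replicate 3. Neuropeptide genes lay at -0.71, -0.95 and -0.67 in the mutant libraries and at -1.27 in wild-type replicate 3. The mutant libraries thus lay between the wild-type libraries for these lists. The part of these gene groups in the comparison of genotypes was not tested. Counts over lists are given with all 6 libraries and, for several lists, also without wild-type replicate 3.

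**Figure D1:**
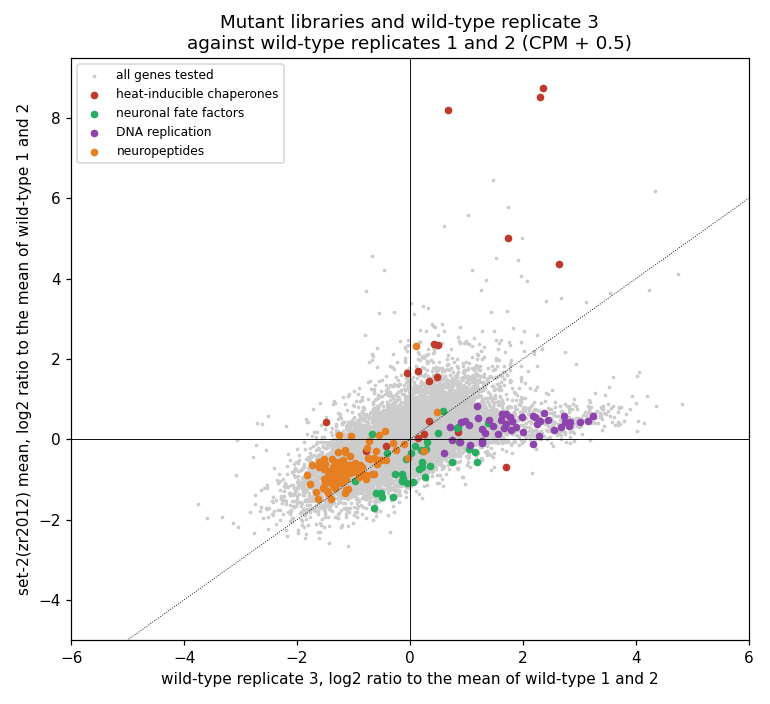
Each point is a gene. The vertical axis is the log2 ratio of the mean of the 3 *set-2(zr2012)* libraries to the mean of wild-type replicates 1 and 2, the horizontal axis is the same ratio for wild-type replicate 3, both on CPM + 0.5, and the dotted line marks equal ratios. DNA replication genes lie to the right, near 0 on the vertical axis, neuropeptides to the lower left, and the heat-inducible *hsp-70*, *hsp-16.2* and *hsp-16.41* stand above 8 on the vertical axis.

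With all 6 libraries, 16892 genes had at least 10 counts in at least 3 libraries and were tested with edgeR's quasi-likelihood test and Benjamini-Hochberg adjustment, at a threshold of 0.05 (two-sided). Of these, 965 (5.71%) were upregulated and 800 (4.74%) downregulated in *set-2(zr2012)*, 10.4% together. The increases reached further than the decreases: 195 upregulated genes had risen at least 4-fold and 24 at least 16-fold, while 49 downregulated genes had fallen at least 4-fold and none 16-fold. All 3 mutant libraries lay above all 3 wild-type libraries for 3189 genes (18.9%) and below them for 3056 (18.1%). In the fit without wild-type replicate 3, 16555 genes were tested, and 5082 (30.7%) were upregulated and 5386 (32.5%) downregulated, 63.2% together. Of the 1765 genes called with all 6 libraries, 1733 were called in the same direction without that library, and none was called in the opposite direction. Of the 10468 genes called without it, the mutant and wild-type ranges overlapped once it was put back for 5264, and it lay on the mutants' side of the other wild-type libraries for 5257 of these. The number of calls also depended on the other libraries. Leaving out 1 of the other 5 left between 29 and 154 calls, and 29 genes, all of them upregulated, were called whichever library was left out. With groups this small an exact permutation test of a single gene stops at p = 0.1 (two-sided), so the p-values given are those of edgeR's test, adjusted over all genes.

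The largest increases were in genes of the heat shock response. Cells answer misfolded protein by transcribing chaperones through the factor HSF-1. HSP70 proteins and their HSP110 partner bind unfolded chains, small heat shock proteins of the HSP-16 family hold them in solution, and HSP90 with its co-chaperones folds clients such as kinases and receptors. *hsp-70*, the strongly inducible HSP70 gene, had 1841, 2289 and 2031 CPM in *set-2(zr2012)*, against 6.39, 6.61 and 10.7 CPM in wild type. Its log2 fold change of 8.01 (SE 0.29, adjusted p = 0.000789) is a 259-fold difference. *hsp-16.2* had 7872, 8997 and 8710 CPM in the mutant libraries, against 19.2, 19.2 and 101 CPM in wild type, with a log2 fold change of 7.52 (SE 0.86, adjusted p = 0.00885). *hsp-16.41*, which lies next to it on chromosome V, had 8883, 9458 and 9376 CPM, against 24.3, 24.3 and 121 CPM, with a log2 fold change of 7.35 (SE 0.83, adjusted p = 0.00863). No mutant library came near a wild-type one for these genes, and within wild type replicate 3 was the highest. The calls of *hsp-16.2* and *hsp-16.41* held in 3 of the 6 fits with 1 library left out, with an adjusted p of up to 0.0687, and that of *hsp-70* held in all 6.

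The constitutive chaperones moved by less from a higher level. *hsp-1*, the HSC70 gene that every cell expresses, had 3546, 4408 and 3841 CPM in *set-2(zr2012)*, against 748, 775 and 1025 CPM in wild type (log2 fold change 2.21, SE 0.16, adjusted p = 0.00378). *daf-21*, the HSP90 gene, had 7789, 8650 and 8749 CPM, against 2625, 2693 and 2554 CPM (1.68, SE 0.10, adjusted p = 0.00232). C30C11.4, named *hsp-110* in RefSeq, had 3253, 3371 and 3713 CPM in the mutant libraries, against 101, 109 and 352 CPM in wild type, and its log2 fold change of 4.2 (SE 0.55, adjusted p = 0.0117) became 5.03 without wild-type replicate 3. *sti-1*, which links HSP70 to HSP90, rose by 2.17 on the log2 scale (adjusted p = 0.00615), and 2 further co-chaperones picked after their values were seen, *fkb-6* and the AHA1 relative C01G10.8, rose by 2.20 and 2.03. *dnj-19*, a J-domain partner of HSP70, rose by 1.37 (adjusted p = 0.00863). *dnj-13*, another J-domain gene, had 1423, 1512 and 1541 CPM, against 69.6, 73.7 and 448 CPM. Its log2 fold change was 2.92 and its adjusted p 0.0599, so that it missed the threshold with all 6 libraries, and it was 4.38 (adjusted p = 5.13e-12) without wild-type replicate 3.

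Of the 25 heat-inducible chaperones in the tables, 19 were tested, 10 (52.6%, against 5.71% of all genes) were upregulated and none was downregulated. The median log2 fold change was 1.66, where all genes tested had -0.08. With wild-type replicate 3 left out the counts were 13 and 2, with the same median, where 30.7% and 32.5% of all genes were called. With another library left out 4 to 9 were upregulated. The other 6 (*hsp-16.1*, *hsp-16.11*, *hsp-16.48*, *hsp-16.49*, F44E5.4 and F44E5.5) were listed at 0 in every library. They belong to duplicated pairs, and reads that match both copies may have been left uncounted. The members with no call include the heat shock factor itself: *hsf-1* had 151, 149 and 139.4 CPM in *set-2(zr2012)*, against 143, 146 and 160 CPM in wild type. The mitochondrial chaperones were not called either. *hsp-60* had 287, 290 and 273 CPM, against 256, 262 and 307 CPM, and *hsp-6* had 342, 326 and 356 CPM, against 246, 251 and 313 CPM (log2 fold change 0.34, adjusted p = 0.122, and 0.46 with adjusted p = 7.14e-05 without wild-type replicate 3). The embryonic small heat shock gene *sip-1* ran the other way, at 11.7, 8.29 and 8.40 CPM, against 16, 15 and 52 CPM, and did not pass the test (log2 fold change -1.55, adjusted p = 0.102), while without wild-type replicate 3 it fell by 0.73 (adjusted p = 0.00085). The increase was thus largest in the inducible cytosolic genes. In the endoplasmic reticulum, the BiP gene *hsp-4* rose 3.17-fold, with 464, 526 and 562 CPM, against 156, 159 and 174 CPM (adjusted p = 0.00264), while the second BiP gene *hsp-3* overlapped between genotypes. The list for endoplasmic reticulum stress had 2 upregulated genes of 25 tested (8%, against 5.71% of all genes), no downregulated one and a median of -0.01. The 2 were *hsp-4* and the stress kinase gene *pek-1* (log2 fold change 1.76, adjusted p = 0.00987).

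**Figure D2:**
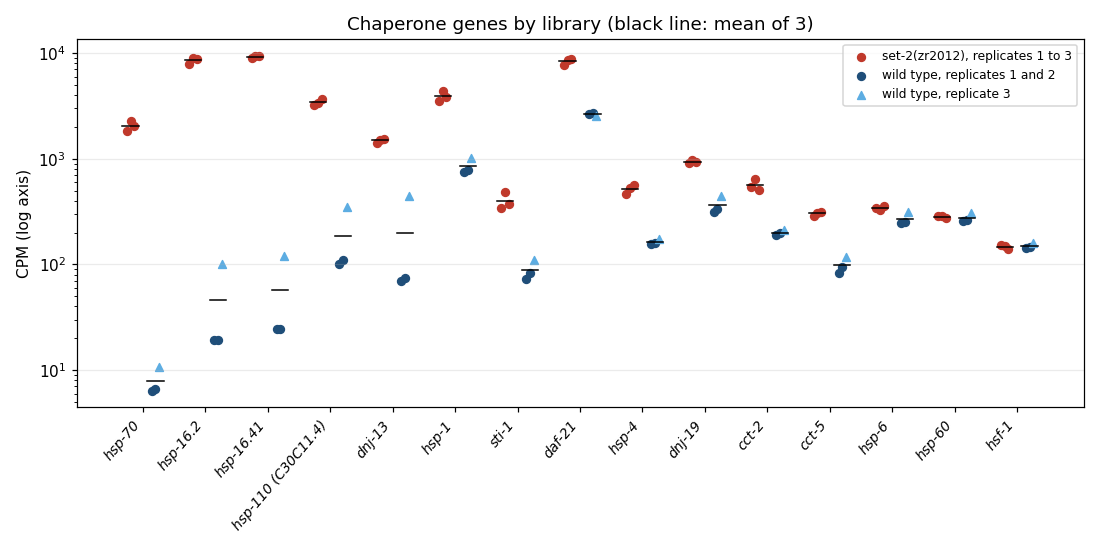
Chaperone genes in each library, in CPM on a log axis, with *set-2(zr2012)* to the left of wild type for each gene and a line at the mean of 3 libraries. *hsp-70* lies at 1841 to 2289 CPM in the mutant and 6.39 to 10.7 CPM in wild type, while *hsf-1* and *hsp-60* overlap. Wild-type replicate 3, drawn as a triangle, lies above the other wild-type libraries for *dnj-13* and *hsp-110*.

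The chaperonin that folds actin and tubulin moved with them. The CCT ring is built of 8 different subunits, and prefoldin hands it unfolded actin and tubulin chains. Of 14 CCT and prefoldin genes tested, 10 (71.4%, against 5.71% of all genes) were upregulated and none downregulated, with a median log2 fold change of 0.79. *cct-2* had 536, 637 and 508 CPM in *set-2(zr2012)*, against 190, 199 and 211 CPM in wild type, a log2 fold change of 1.49 (SE 0.12, adjusted p = 0.00439). *cct-5*, counted on a row named by accession, had 290, 310 and 316 CPM, against 83.4, 94.7 and 118 CPM (log2 fold change 1.63, adjusted p = 0.00578). *cct-1* rose by 0.84 and *cct-4* by 0.86. All 3 mutant libraries lay above all wild-type ones for 12 of the 14 genes, where 18.9% of all genes did so. The exceptions were the prefoldin subunits *pfd-3* and *pfd-6*, at log2 fold changes of 0.07 and -0.14. Leaving out wild-type replicate 3 gave 12 upregulated genes, in a fit where 30.7% of all genes were, and leaving out another library gave between 1 and 4.

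Several of the largest increases outside the chaperones were in genes of unknown role. F19B2.5 had 1213, 1359 and 1438 CPM in *set-2(zr2012)*, against 14.7, 14.9 and 41.6 CPM in wild type (log2 fold change 5.81, SE 0.50, adjusted p = 0.00551). R09E10.13 (5.46), Y94H6A.10 (5.02) and Y38H6C.8 (4.97) followed it on the log2 scale, as did *dct-10* (5.11). *ttll-12*, which resembles tubulin tyrosine ligases, had 1619, 1616 and 1914 CPM, against 42.05, 43.4 and 64.9 CPM (5.1, SE 0.23, adjusted p = 0.00146). All of these except Y94H6A.10 were called whichever library was left out. Y94H6A.10 had an adjusted p of up to 0.0687.

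Some upregulated genes were neighbours. In the order of genes in the RefSeq annotation of WBcel235 (a later build than the WS220 genome of the files, so that only names and order are used), *uggt-2*, the gene before *hsp-70* on chromosome I, had a log2 fold change of 3.36 (adjusted p = 0.00172), while the next gene on the other side, *cbl-1*, had -0.26 (adjusted p = 0.417). Beside *hsp-110* on chromosome III, *rpn-3*, a lid subunit of the proteasome, had 418, 481 and 457 CPM in *set-2(zr2012)*, against 67.5, 72.2 and 169 CPM in wild type (log2 fold change 2.1, adjusted p = 0.0225). The values fell with distance from *hsp-110* on that side, to 1.1 for the mitochondrial ribosomal gene *mrpl-32* (adjusted p = 0.0172) and 0.50 for F42H10.5 (adjusted p = 0.0484), and on the other side the nearest tested genes had 0.30 and 0.14 and were not called. *rpn-3* was the only one of 33 proteasome genes tested to be called. *mrpl-50*, next to *cct-2*, had a log2 fold change of 1.19 (adjusted p = 0.014). *srbc-58*, a chemoreceptor gene next to *sti-1* on chromosome V, had 2.06, 1.69 and 2.93 CPM, against 0.168, 0.0435 and 0.168 CPM (log2 fold change 4.01, adjusted p = 0.0086). The call of *uggt-2* held in all 6 fits with 1 library left out, that of *srbc-58* in 3 and that of *hsp-110* itself in 2. Those of *rpn-3*, *mrpl-32*, F42H10.5 and *mrpl-50* held in only 1. Not every chaperone gene had an upregulated neighbour. An upregulated gene also lay next to *cct-8* and next to *pfd-5*. No tested gene next to *hsp-1*, *hsp-4*, *dnj-19*, *cct-1*, *cct-3*, *cct-4*, *cct-5* or *cct-6* was called. *ttll-12* on chromosome II lay between *scp-1* (2.68 on a row named by accession, adjusted p = 0.00393) and F42A8.1 (-2.51), which had the largest decrease among called genes with a mean of at least 100 counts. For the 10 largest increases, 13 adjacent genes were tested, of which 4 were upregulated and 1 downregulated. This leaves out *hsp-16.2* and *hsp-16.41*, which are both among the 10 and lie next to each other. For the 10 largest decreases 15 were tested, with 1 in each direction. Among all genes 5.71% were upregulated and 4.74% downregulated. Strand was not stated for the counting, so reads that run past the end of a gene cannot be told from those of its neighbour.

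**Figure D3:**
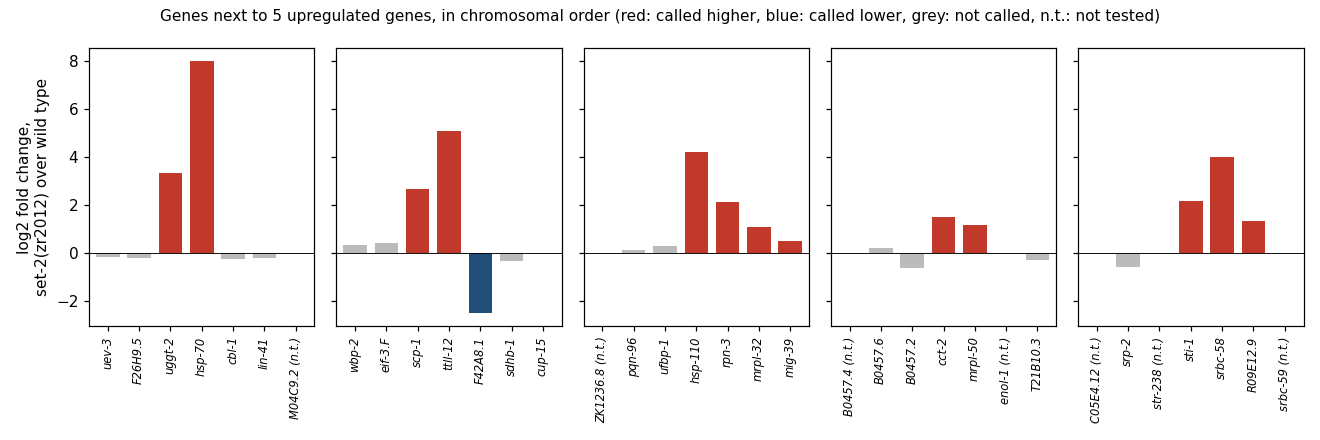
Log2 fold change (*set-2(zr2012)* over wild type, all 6 libraries) of *hsp-70*, *ttll-12*, *hsp-110*, *cct-2* and *sti-1* and of up to 3 genes on each side, in chromosomal order. Red bars are upregulated, blue bars downregulated and grey bars not called. On 1 side of *hsp-110* the bars fall from 4.2 to 2.1, 1.1 and 0.5.

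The 10 largest decreases among called genes with a mean of at least 100 counts were smaller and lay at low levels. K07A1.3 had 3.05, 2.80 and 3.12 CPM in *set-2(zr2012)*, against 16.13, 17.5 and 13.1 CPM in wild type (log2 fold change -2.38, SE 0.18, adjusted p = 0.00378), and wild-type replicate 3 was close to the others. F42A8.1 had 4.59, 3.35 and 4.03 CPM, against 26.9, 28.6 and 12.8 CPM. T10B10.4 was the most abundant of the 10, at 19.8, 17.3 and 17.9 CPM, against 100.4, 104.3 and 33.2 CPM (-2.11, adjusted p = 0.0315). The remaining 7 were *ttr-28* (-2.23), F13E9.15 (-2.23), F07F6.2 (-2.2), F26D2.13 (-2.18), Y20F4.8 (-2.18), *scl-3* (-2.13) and R13A1.10 (-2.02). For 9 of the 10 the call was lost when any library other than wild-type replicate 3 was left out, with adjusted p values of up to 0.191. K07A1.3 kept it in 5 of 6 such fits, the highest adjusted p being 0.0514. Without wild-type replicate 3 the genes with the largest changes included some that its values had kept from a call. *fbxb-7* had 6.96, 8.55 and 9.13 CPM in the mutant libraries, 0 in wild-type replicates 1 and 2 and 12.98 CPM in replicate 3. C38D9.2 had 36.8, 29.6 and 46.3 CPM, against 0, 0.0435 and 10.03 CPM. *cyp-13A11* had 6.61, 4.16 and 4.66 CPM, against 44.2, 44.9 and 0.072 CPM, so that its wild-type range enclosed the mutant one. C01G10.6 and its neighbour C01G10.15 fell by 2.62 and 2.61 on the log2 scale without that library.

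Transcription factors that set neuronal identity were lower in the mutant. Such terminal selectors turn on the batteries of genes that give each neuron its transmitter and receptors, and they are first expressed in the embryo. Of 36 neuronal fate factors tested (40 on the list), 16 (44.4%) were downregulated, against 4.74% of all genes, and none was upregulated. The median log2 fold change was -0.79. *unc-86*, the POU factor of touch and other neurons, had 57.3, 58.6 and 49.8 CPM in *set-2(zr2012)*, against 117, 120.4 and 114.8 CPM in wild type, a log2 fold change of -1.09 (SE 0.10, adjusted p = 0.00615). *unc-42*, a homeodomain factor of command interneurons, had 46.7, 49.7 and 41.5 CPM, against 97.1, 95.1 and 99.3 CPM (-1.08, SE 0.11, adjusted p = 0.00691). *ceh-6* had 15.6, 14.7 and 15.4 CPM, against 43.4, 40.4 and 34 CPM (-1.37, SE 0.13, adjusted p = 0.00691). *zag-1*, a zinc-finger homeodomain factor needed for axon development, had 96.6, 99.9 and 84.0 CPM, against 181, 182 and 168 CPM (-0.92, SE 0.11, adjusted p = 0.009). In these 4 genes wild-type replicate 3 lay with the other wild-type libraries or close to them, and the mutant libraries lay well below. *ast-1*, an ETS factor of dopaminergic neurons, fell by 0.78, *mab-9* by 1.59, *pag-3* by 1.23 and *vab-7* by 1.05.

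Of the proneural genes, which act before neurons are born, *cnd-1*, *hlh-3*, *ngn-1* and *hlh-14* were not called with all 6 libraries, and wild-type replicate 3 was the highest library for each. *ngn-1* had 2.92, 3.06 and 3.08 CPM in *set-2(zr2012)*, against 4.60, 4.87 and 11.37 CPM in wild type. With that library left out, *ngn-1* and *hlh-14* fell by 0.65 (adjusted p = 0.00231) and 0.59 (adjusted p = 0.00631). Among the fate factors, 24 of 36 lay below all wild-type libraries in all mutants and 1 above, where 18.1% and 18.9% of all genes did so. When wild-type replicate 3 was left out, 23 were downregulated and 4 upregulated, where 32.5% and 30.7% of all genes were, with a median of -0.62. With any other library left out between 0 and 3 kept a call, while the median stayed between -0.80 and -0.70.

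Downregulated genes also included single factors of other tissues. Of 39 epidermal genes tested 2 were upregulated and 1 downregulated (median log2 fold change 0.17), and of 40 muscle genes 2 and 2 (median -0.125). Of 23 pharynx genes tested none was upregulated and 3 (13%) were downregulated (median -0.54). Among all genes 5.71% were upregulated and 4.74% downregulated. Without wild-type replicate 3, 26 epidermal genes were upregulated and 3 downregulated, 12 and 18 muscle genes, and 2 and 19 pharynx genes. The medians were then 0.41, -0.12 and -0.84, and 30.7% and 32.5% of all genes were called. *lin-26*, which sets epidermal fate, had 84.4, 73.4 and 77.7 CPM in *set-2(zr2012)*, against 227, 224 and 179 CPM in wild type (log2 fold change -1.42, SE 0.13, adjusted p = 0.00578). *unc-120*, a muscle factor related to SRF, had 97.5, 88.6 and 82.8 CPM, against 165, 169 and 183 CPM (-0.94, adjusted p = 0.00826). *tbx-2*, a T-box factor of the pharynx, had 65.7, 66.4 and 60.5 CPM, against 113, 117 and 124 CPM (-0.88, adjusted p = 0.00813). Of 63 *ceh* homeobox genes tested, a list added after values had been seen, 17 (27%, against 4.74% of all genes) were downregulated and 1 upregulated. This list shares members with others, among them *ceh-6* with the neuronal fate factors and *ceh-13* with the patterning genes, so the counts are not separate. Between 0 and 2 of the 63 stayed downregulated when a library other than wild-type replicate 3 was left out. Without wild-type replicate 3, 35 of the 63 were downregulated and 15 upregulated, where 32.5% and 30.7% of all genes were. The first by adjusted p, *ceh-32*, a relative of sine oculis, had 91.7, 90.8 and 84.2 CPM, against 203, 207 and 197 CPM (-1.19, SE 0.09, adjusted p = 0.00378), and *ceh-74* was the one that rose, by 1.35. The Hox genes *ceh-13*, *mab-5* and *egl-5*, which pattern the body axis, fell by 0.63, 0.80 and 0.55. They were among 8 of 41 embryonic patterning genes (19.5%, against 4.74% of all genes) that were downregulated, with 1 upregulated, the collagen IV gene *emb-9* (0.77). The patterning list as a whole did not keep its direction: its median was -0.24 with all 6 libraries and 0.01 without wild-type replicate 3. Of 225 nuclear hormone receptors tested, 23 were downregulated and 5 upregulated, where 4.74% and 5.71% of all genes were, with a median of -0.33 and of -0.36 without that library. At most 1 of them was called when another library was left out. Without wild-type replicate 3, 110 of 221 were downregulated and 23 upregulated, where 32.5% and 30.7% of all genes were. *nhr-194* and *nhr-20* fell by 1.09 and 0.70, and *nhr-41* rose by 0.70. An epidermal factor that rose was *grh-1* (0.61, adjusted p = 0.0171), the Grainyhead gene, with 403, 410 and 414 CPM, against 257, 257 and 289 CPM.

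**Figure D4:**
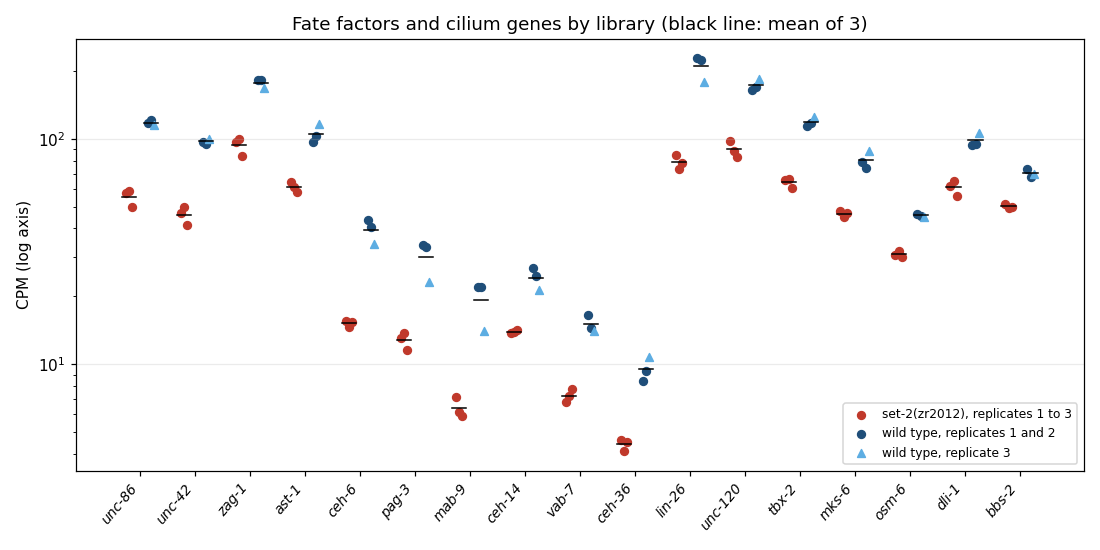
Neuronal fate factors, factors of epidermis, muscle and pharynx (*lin-26*, *unc-120*, *tbx-2*) and cilium genes in each library, in CPM on a log axis, with *set-2(zr2012)* to the left of wild type and a line at the mean of 3 libraries. In every gene drawn the 3 mutant libraries lie below the 3 wild-type libraries. *unc-86* lies at 49.8 to 58.6 CPM in the mutant and 114.8 to 120.4 CPM in wild type.

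Genes that build sensory cilia were lower by a small amount. Intraflagellar transport particles carry material along the cilium, the BBSome adapts them to membrane cargo, and MKS proteins form the gate at the cilium base. In *C. elegans* only sensory neurons are ciliated. Of 51 cilium genes tested (58 in the tables), 11 (21.6%, against 4.74% of all genes) were downregulated and none upregulated, and the median log2 fold change was -0.365, or -0.34 without wild-type replicate 3. For 32 of the 51 the highest mutant library was under the lowest wild-type one, and for 2 the lowest mutant library was over the highest wild-type one. Of all genes, 18.1% and 18.9% did so. *mks-6* had 47.8, 45.03 and 46.7 CPM in *set-2(zr2012)*, against 78.9, 74.1 and 87.8 CPM in wild type (log2 fold change -0.79, SE 0.11, adjusted p = 0.0125). *osm-6*, an intraflagellar transport gene, had 30.4, 31.9 and 30.03 CPM, against 46.4, 45.6 and 44.99 CPM (-0.57, SE 0.10, adjusted p = 0.0219). The kinesin-II subunit genes *klp-20* and *kap-1* fell by 0.73 and 0.53, the dynein light intermediate chain gene *dli-1* by 0.69, and the BBSome genes *bbs-2*, *bbs-5* and *bbs-4* (on a row named by accession) by 0.49, 0.50 and 1.11. The dynein heavy chain gene *che-3* ran the other way, at 198, 188 and 207 CPM, against 158, 150 and 166 CPM (log2 fold change 0.32, adjusted p = 0.073, and 0.36 with adjusted p = 0.00064 without wild-type replicate 3). None of the 11 calls was kept when a library other than wild-type replicate 3 was left out, although the median then stayed between -0.36 and -0.33. Without wild-type replicate 3, 33 of the 51 were downregulated and 4 upregulated, where 32.5% and 30.7% of all genes were.

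The axon guidance genes described here that the study had crossed with *set-2* were not called with all 6 libraries. The Eph receptor gene *vab-1* had 457, 483 and 447 CPM in *set-2(zr2012)*, against 399, 397 and 491 CPM in wild type. The netrin receptor gene *unc-5* had 287, 299 and 287 CPM, against 200, 198 and 280 CPM, and was upregulated only in the fit without wild-type replicate 3 (log2 fold change 0.55, adjusted p = 1.3e-05, against 0.36 and adjusted p = 0.169 with all 6). *wsp-1*, which promotes actin branching, had 23.6, 18.3 and 22.2 CPM, against 32.9, 31.99 and 20.2 CPM, and fell by 0.61 (adjusted p = 0.000297) without that library. The plexin gene *plx-2* (-0.02), the syndecan gene *sdn-1* (-0.04) and the Robo gene *sax-3* (-0.02) lay near 0 on the log2 scale. When that library was left out, *vab-1*, *plx-2* and *sdn-1* rose by 0.22, 0.17 and 0.17, and *sax-3* was not called. Of all 58 axon guidance genes tested, 6 (10.3%, against 4.74% of all genes) were downregulated and 3 (5.17%, against 5.71%) upregulated, and none was called when a library other than wild-type replicate 3 was left out. Without wild-type replicate 3 the lean was reversed: 26 of the 58 were upregulated and 14 downregulated, where 30.7% and 32.5% of all genes were. The median log2 fold change was 0.18 in that fit and 0.01 with all 6 libraries. The ephrin genes *vab-2* and *efn-4* had 44.9, 42 and 40.5 CPM and 52.6, 50.8 and 46.6 CPM in the mutant, against 77.7, 77.1 and 67.3 CPM and 76.4, 75.4 and 76.6 CPM in wild type, falling by 0.80 (adjusted p = 0.0126) and 0.61 (adjusted p = 0.0187). The netrin gene *unc-6* had 125, 125 and 123 CPM, against 164, 158 and 174 CPM (-0.41, adjusted p = 0.0364). *hst-2*, a heparan sulfate 2-O-sulfotransferase gene, had 5.32, 5.2 and 4.99 CPM, against 12.8, 11.7 and 12.5 CPM (-1.25, adjusted p = 0.00885). The glypican gene *gpn-1* fell by 0.76. The semaphorin gene *smp-2* (0.35), the ankyrin gene *unc-44* (0.40) and *zig-3* (0.83) rose.

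Of 58 synaptic transmission genes tested, 2 were upregulated and 2 downregulated, 3.45% in each direction, where 5.71% and 4.74% of all genes were, and none was called when a library other than wild-type replicate 3 was left out. Without wild-type replicate 3, 11 of 57 were upregulated and 34 downregulated, where 30.7% and 32.5% of all genes were. The glutamate receptor gene *glr-1*, expressed in command interneurons, had 54.9, 45.9 and 49.2 CPM in *set-2(zr2012)*, against 114, 110 and 76.8 CPM in wild type (log2 fold change -1.003, adjusted p = 0.023). *unc-13*, needed for vesicle release, had 546, 554 and 607 CPM, against 393, 391 and 316 CPM (0.64, adjusted p = 0.0278). Neuropeptide genes depended on wild-type replicate 3. Of 106 tested with all 6 libraries 1 was upregulated and none downregulated, where 5.71% and 4.74% of all genes were. Of those tested without wild-type replicate 3, 2 were upregulated and 94 downregulated, where 30.7% and 32.5% of all genes were.

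No H3K4 regulator was called with all 6 libraries by edgeR. Of 15 writers and COMPASS subunits and 8 demethylases and readers tested, none was called in either direction, where 10.4% of all genes were. Of the writers 3 and of the demethylases 2 had an unadjusted p under 0.05, as did 5129 of all 16892 genes tested. DESeq2 called 2 writers downregulated and 1 of the demethylases and readers upregulated, where it called 1625 and 1627 of all 16892 genes. Voom with sample weights called 6 writers upregulated and 4 downregulated, and 4 and 1 of the demethylases and readers. It called 5454 and 5832 of all genes. *set-16*, the MLL relative, had 412, 407 and 379 CPM in *set-2(zr2012)*, against 308, 322 and 426 CPM in wild type. *set-30* had 394, 394 and 416 CPM, against 326, 360 and 324 CPM (log2 fold change 0.25, adjusted p = 0.121), and *set-17* 47.4, 51.5 and 45.8 CPM, against 53.4, 53.1 and 56.8 CPM (-0.18, adjusted p = 0.284). The COMPASS subunits *ash-2* (0.05), *wdr-5.1* (-0.09) and *rbbp-5* (-0.36) and the demethylase genes *spr-5* (0.30), *rbr-2* (0.26) and *jmjd-1.2* (0.10) were not called. In the absence of wild-type replicate 3, *set-16*, *spr-5* and *rbr-2* rose by 0.34 (adjusted p = 0.000695), 0.59 (adjusted p = 9.65e-05) and 0.46 (adjusted p = 6.97e-05), among 10 upregulated and 3 downregulated genes of the 23. In that fit 30.7% of all genes were upregulated and 32.5% downregulated.

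Of 70 mitochondrial ribosomal protein genes tested, 11 (15.7%, against 5.71% of all genes) were upregulated and none downregulated. All mutant libraries lay above all wild-type ones for 37 and below them for 5, where 18.9% and 18.1% of all genes did so. The median log2 fold change was 0.24 (0.34 without wild-type replicate 3). None was called when any other library was left out, where the median lay between 0.19 and 0.27. *mrpl-50* had 138, 198 and 155 CPM in *set-2(zr2012)*, against 65.3, 67.7 and 81.7 CPM in wild type, and *mrpl-51* had 65.6, 71.4 and 68.7 CPM, against 47.02, 46.98 and 51.98 CPM. The first 2 by adjusted p, *mrpl-50* and *mrpl-32*, are the neighbours of *cct-2* and *hsp-110* described above. Cytosolic ribosomal protein genes had a median of -0.01, with 3 of 78 downregulated. Of 20 subunits of the vacuolar ATPase, a list added after values had been seen, 4 (20%, against 5.71% of all genes) were upregulated, among them *vha-16* (0.59) and *vha-6* (0.78), the intestinal subunit, and none when a library other than wild-type replicate 3 was left out. Of 39 genes of oxidative, starvation and hypoxia responses, 7 (17.9%, against 5.71% of all genes) were upregulated and none downregulated, with a median of 0.15, and these calls too were lost when any library other than wild-type replicate 3 was left out. They include the p62 gene *sqst-1* (1.01 on a row named by accession), *fil-2* (3.93) and the catalase gene *ctl-1* (1.03). Without wild-type replicate 3, 18 of 38 genes on this list were upregulated and 9 downregulated, where 30.7% and 32.5% of all genes were.

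**Figure D5:**
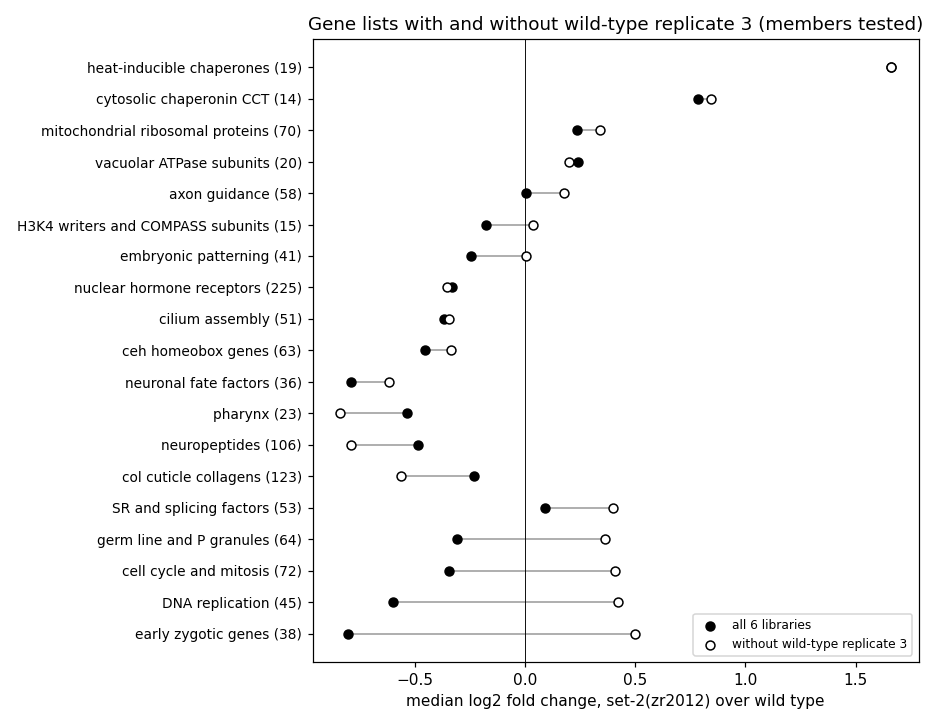
Median log2 fold change (*set-2(zr2012)* over wild type) of 19 gene lists, with all 6 libraries (filled) and without wild-type replicate 3 (open). The number of members tested is in parentheses. The heat-inducible list stays at 1.66, neuronal fate factors, *ceh* genes and cilium genes stay below 0, and early zygotic genes lie at -0.80 with all libraries and at 0.50 without that library.

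Lists tied to cell division and embryo age changed sign with wild-type replicate 3. DNA replication genes had a median log2 fold change of -0.60 with all 6 libraries, none called of 45. Without wild-type replicate 3 it was 0.42, with 32 upregulated and 1 downregulated, where 30.7% and 32.5% of all genes were. *rnr-2*, a subunit of ribonucleotide reductase, had 83.0, 84.1 and 78.4 CPM in *set-2(zr2012)*, against 77.0, 79.0 and 383 CPM in wild type, and *top-2*, topoisomerase II, had 88.1, 99.9 and 73.4 CPM, against 72.1, 75.6 and 434 CPM. Early zygotic genes had -0.80, and 0.50 without it, cell cycle genes -0.34 and 0.41, and germ line genes -0.31 and 0.37. The *col* cuticle collagens had -0.23, and -0.56 without it. Their summed level was 11500 to 14800 CPM in the mutant libraries, against 19400, 19600 and 7940 CPM in wild type, and 7 of 154 members were at 0 in all. The maternal list, with no member at 0 among 46, summed to 3570 to 3690 CPM, against 3000, 3090 and 4050 CPM. Material of adults was low. Sperm and male germ line markers summed to 48.6 to 52.5 CPM in the mutant libraries, against 37.4, 36.7 and 24.3 CPM, with 12 of 67 at 0. Of 11 tested, 4 (36.4%, against 5.71% of all genes) were upregulated, each in only 1 of the 6 fits with 1 library left out. Genes with so few counts can pass the count filter through the group where they are high. The share is therefore not read as a result about the list. The major sperm protein genes on the list had 14 to 81 counts per library in all. *msp-36*, which passed the filter through the mutant libraries, had 0.429, 0.488 and 0.367 CPM, against 0.0336, 0.0435 and 0.072 CPM. The adult soma list summed to 1280 to 1350 CPM, against 966, 973 and 1350 CPM, and its 5 *vit* genes had 330 to 569 counts per library. The part of these differences in the other results was not tested.

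The heat shock genes were also set beside *set-2(tm1630)*, a deletion allele sequenced with its own wild type in the first experiment, by testing the difference between the alleles over all 12 libraries. In that fit 4198 of 17903 genes (23.4%) differed between the alleles. *hsp-70* was 4.31 log2 units further up in *set-2(zr2012)* (SE 0.60, adjusted p = 0.00184), where *set-2(tm1630)* had a log2 fold change of 3.69 over its own wild type. For *hsp-16.2* the difference of 3.11 did not pass the test (adjusted p = 0.0604). Other heat shock genes also rose in *set-2(tm1630)* over its own wild type. Among these were *hsp-16.2* (4.41, adjusted p = 0.00226), *hsp-16.41* (4.60, adjusted p = 0.00413), *hsp-4* (1.77, adjusted p = 0.0005) and *daf-21* (1.35, adjusted p = 0.00613). *hsp-17* (1.47, adjusted p = 0.03), *sti-1* (0.84, adjusted p = 0.0135) and *dnj-19* (0.76, adjusted p = 0.0377) rose too. So did *sip-1* (2.83, adjusted p = 0.000825), which ran the other way in *set-2(zr2012)*. *hsp-110* (0.94, adjusted p = 0.1) and *dnj-13* (-0.18, adjusted p = 0.814) were not called there, and *hsp-6* (-1.02), *hsp-43* (-1.09) and *hsp-60* (-1.49) were lower. The experiments differ in batch as well as in allele, and these cannot be told apart.

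Chromosome X held more downregulated than upregulated genes. On X, 75 of 2356 genes tested (3.18%) were upregulated and 137 (5.81%) downregulated, with a median log2 fold change of -0.20, the lowest of the 6 chromosomes. On chromosome I, 158 of 2515 (6.28%) were upregulated and 114 (4.53%) downregulated, with a median of -0.01. Chromosome V had a median of -0.12, and 217 upregulated and 178 downregulated genes. Without wild-type replicate 3 the medians ran from -0.18 on X to 0.13 on I, and 23.1% of genes on X and 37.2% on I were upregulated. No test of the difference between chromosomes was run. By expression level, the share called was between 8.67% in the least expressed quintile (0.209 to 1.40 CPM) and 11.7% in the most expressed quintile (64.3 CPM and above). The median absolute log2 fold change of called genes was 1.93 in the least expressed quintile and 0.65 in the most expressed, so that small changes passed the test mainly in abundant genes.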

How the data were processed

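RNA of whole embryos was sequenced (TruSeq v2 libraries, NextSeq 500). The authors deposited raw counts per gene for each library; the submitters' processing notes name Trimmomatic 0.36.0, HTSeq 0.9.1 and DESeq2 2.1.8.3 and the build ce10. The aligner and strand setting are not given in the sources used here. Each table held 45410 rows, of which 43891 matched a RefSeq gene (WBcel235). Rows named by an accession, 3837 in number, held 4.23% of counts and hide some well-known genes.

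The filter kept genes that reached 10 counts in 3 or more of the 6 libraries, which were tested with edgeR 4.0.16 (R 4.3.3), using TMM scaling, the quasi-likelihood test and Benjamini-Hochberg adjustment (threshold 0.05). CPM is given per library. Genes named individually were the 10 with the largest change in each direction among called genes with a mean of at least 100 counts whose groups did not overlap, the 5 largest each way without wild-type replicate 3, up to 4 called members of each list in each direction, and some of the genes the study crossed with *set-2* (others are not reported here); further genes were chosen after their values were seen. Members and lists were chosen with earlier results of these data known, and the *ceh* and vacuolar ATPase lists were added after their values were seen. Alternatives were DESeq2 1.42.0, limma 3.58.1 voom with sample weights, RLE scaling, other filters, a replicate block, all 12 libraries, and each library left out. The code was tested on simulated data. No explanation was weighed.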

Additional observations from a re-analysis of the deposited data

Results flagged for a closer look

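For 8 of 19 heat-inducible chaperones and 2 of 14 CCT and prefoldin genes the log2 fold change over wild type differed between *set-2(zr2012)* and *set-2(tm1630)*, where 4198 of 17903 genes (23.4%) did, by edgeR's quasi-likelihood test of the difference over 12 libraries with Benjamini-Hochberg adjustment. The difference (zr2012 minus tm1630) was 4.31 for *hsp-70* (adjusted p = 0.00184), 3.24 for C30C11.4 (adjusted p = 0.00586), 3.09 for *dnj-13* (adjusted p = 0.0182), 1.51 for *hsp-60* (adjusted p = 0.0444) and 1.48 for *hsp-1* (adjusted p = 0.0188). It was 1.34 for *hsp-6* (adjusted p = 0.0199), 1.31 for *sti-1* (adjusted p = 0.0177) and -4.40 for *sip-1* (adjusted p = 0.00235). Some of these differences lay mostly in *set-2(tm1630)*. Its log2 fold changes were -1.49 for *hsp-60*, -1.02 for *hsp-6* and 2.83 for *sip-1*. In *set-2(zr2012)* the same fit gave 0.019, 0.315 and -1.565. Of the CCT subunits, the difference was 0.91 for *cct-2* (adjusted p = 0.0364) and 0.895 for *cct-6* (adjusted p = 0.0414), counted on a row named by accession. Each allele was sequenced with its own wild type, so allele and experiment cannot be told apart.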

How the results depend on the processing

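No gene called with all 6 libraries changed sign under any alternative, but the counts of calls did move. DESeq2 called 1627 genes upregulated and 1625 downregulated, voom with sample weights 5454 and 5832, and the fit of all 12 libraries 177 and 71. Leaving out 1 library gave 29 to 5082 upregulated and 0 to 5386 downregulated genes, the highest without wild-type replicate 3. The replicate block left 40 upregulated and 0 downregulated genes, with 3711 at an unadjusted p under 0.05. Deviations of same-numbered libraries from their group means correlated at 0.06, -0.231 and -0.234. Wild-type replicate 3 dominated the wild-type mean, so replicates 1 and 2 gave nearly the same values (0.06 and 0.0568 with mutant replicate 1). The check therefore could not show whether replicate numbers pair the samples. The genes whose sign changed were not called with all 6 libraries; most lay near 0, but *top-2* and *rnr-2* were at -1.16 and -1.13. *sax-3* was at 0.00074 with RLE, 0.000675 with DESeq2, 0.11 with voom and 0.0162 with at least 10 counts in every library. *plx-2* was at 0.15 with voom, 0.0146 with that filter and 0.00185 with the block. With voom, *sdn-1* was at 0.16, *wdr-5.1* at 0.25, *hsp-3* at 0.13, *hsf-1* at 0.0107, *top-2* at 0.15 and *rnr-2* at 0.0348. Over the fits with 1 library left out, *plx-2* ran from -0.11 to 0.17, *sdn-1* from -0.14 to 0.17, *sax-3* from -0.0917 to 0.13, *ash-2* from -0.0229 to 0.19, *wdr-5.1* from -0.25 to 0.27, *hsp-60* from -0.0104 to 0.13, *hsp-3* from -0.32 to 0.18, *hsf-1* from -0.0684 to 0.0199, *top-2* from -1.55 to 0.24 and *rnr-2* from -1.50 to 0.0692. The cause was not tested.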
